A study of Mus musculus with 6 samples.

Results

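The 41 genes described here carry microbial signals from the Toll-like receptors (TLR) and the NOD receptors to the transcription factor NF-kB. They were taken by name, for what their proteins do, and all 41 were found among the 55487 genes of the table. They comprise 11 Toll-like receptors, 3 genes of lipopolysaccharide recognition, 4 adaptors, 4 genes of the downstream kinases and their ubiquitin ligase, 3 receptor-level inhibitors, 3 genes of the NOD branch, 3 subunits of the IKK complex, 4 NF-kB subunits, 5 I-kappa-B and feedback genes, and Tnf. RNA was sequenced from terminal ileum taken on postnatal day 9 from C57BL/6 mice, with 3 NEC and 3 control libraries. NEC is necrotizing enterocolitis, an inflammatory disease of the immature bowel. The induction given in the labels combined a hyperosmolar formula fed by gavage, bouts of hypoxia (5% O2, 10 min each, 3 a day, on 4 days) and oral lipopolysaccharide (LPS) at a daily 4 mg/kg on days 6 and 7. That text stands on every label, controls included, so how the controls were fed and handled is not stated. No allele or transgene is named for either group. The labels do not tie each library to an animal of its own, so some of the spread between these 6 libraries may be technical. Each p-value sets the difference between the groups against the spread within them.

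Toll-like receptors are membrane proteins that recognise microbial products: TLR4, with MD-2 (Ly96) and CD14, binds LPS, TLR5 binds flagellin, TLR2 binds bacterial lipoproteins, and several others bind nucleic acids inside endosomes. Most of them signal through the adaptor MyD88 and the IRAK kinases to the ubiquitin ligase TRAF6, while TLR3 and, in part, TLR4 use the adaptor TRIF (Ticam1). NOD1 and NOD2 sense fragments of bacterial cell wall in the cytosol and signal through RIPK2. Each route reaches the IKK complex, which marks I-kappa-B proteins for destruction and so frees NF-kB, and NF-kB in turn drives genes that shut the signal down, among them Nfkbia, Tnfaip3 and Tnip1. In mice, signalling of TLR4 in the immature gut epithelium has been tied to NEC.

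Libraries held an estimated 15.2 to 18.7 M fragments. Values are in FPKM, fragments scaled by transcript length and by the depth of the library. Several features of the libraries touch the values below. Transcripts of Y-linked genes were present in NEC 1 and all controls (Ddx3y at 6.78 to 9.89 FPKM) and nearly absent in NEC 2 and 3, where Xist stood at 130 and 139 FPKM, so the libraries do not share one sex and NEC 1 differs from NEC 2 and 3 in it. Of the 41 genes, 5 lie on the X chromosome (Tlr7, Tlr8, Tlr13, Irak1 and Ikbkg). Rn7s1, a gene of the 7SL RNA, took 42.7% of the summed FPKM in NEC 1 and 27.3% to 32.2% in the others. Markers of cell types also moved with the groups: the 7 enterocyte markers summed to 11747 to 14483 FPKM in NEC and 3070 to 3871 in control, the 6 fibroblast markers to 89.5 to 289 against 529 to 661, and the 3 pan-leukocyte markers (Ptprc, Laptm5, Coro1a) to 3.27 to 4.49 against 6.73 to 10.1. The 10 macrophage and monocyte markers, with sums of 83.0 to 93.3 and 83.6 to 112, lay lower in every NEC library than in every control for 7 of the 10. Among all tested genes 47.3% lay lower in this way, and among genes with a mean of 0.1 to 1 FPKM 41.7%. The 8 neutrophil markers summed to 47.7 to 53.9 in NEC and to 51.4 and 51.5 in control 2 and 3, but to 7.09 in control 1, and the neutrophil gene Ly6g stood at or near 0 everywhere. The 7 general epithelial markers summed to 1299 to 1566 against 1207 to 1307, with Vil1 higher (280 ± 7.40 against 166 ± 9.90 FPKM), Krt19 lower (49.8 ± 15.8 against 130 ± 13.0) and the other 5 not called. In bulk tissue, fewer cells of a type and less RNA per cell cannot be told apart, and the part of these shifts in the results was not tested. Of the 5 ileum markers, Fabp6 was at 0.123, 0 and 10.4 FPKM in NEC and 1.20 to 2.45 in control, and Slc10a2 at 1.01 to 2.30 over all libraries. Fgf15 fell (0.627 ± 0.651 against 5.80 ± 0.221 FPKM), while Slc51a and Slc51b rose. Of the 5 upper small intestine markers, Fabp1, Gata4 and Apoa4 rose, Cybrd1 fell and Slc40a1 was not called. Fabp1 was at 70.6 to 194 FPKM against 0.232 to 0.781, and Gata4 at 3.74 to 7.96 against 0.0622 to 0.184. Cybrd1 was at 3.27 ± 0.344 against 4.81 ± 0.715 FPKM. Whether both groups were sampled at the same point of the bowel was not tested.

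Of the 41 genes, 27 had a mean of at least 1 FPKM over the 6 libraries and were tested. Of these, 5 rose: the TRIF adaptor Ticam1, the inhibitor Tollip, the IKK subunit Chuk and the feedback genes Tnip1 and Tnfaip3. Another 2 fell, the receptor genes Tlr5 and Tlr12, and 20 were not called, 9 of the 27 having an unadjusted p under 0.05 (limma on log2(FPKM + 1), Benjamini-Hochberg adjustment over 15806 genes, call at adjusted p under 0.05). Among all tested genes 7.69% rose and 30.6% fell, so the 18.5% of these genes that rose and the 7.41% that fell stand beside a table tilted downward. With the filter at a mean of 5 FPKM, 4 of 15 of these genes rose and 0 fell. At that filter 13.5% of 6950 genes rose and 25.1% fell. The median log2 change was 0.11 over the 27 genes and -0.26 over all tested genes. Log2 changes below are on the log2(FPKM + 1) scale, which understates the change of genes of low level. Of the 27, 7 were higher in every NEC library than in every control (25.9%, where 11.8% of all tested genes were), the 5 risen genes with Irak4 and Nfkbib, and 4 were lower (14.8%, where 47.3% were), namely Tlr5, Tlr12, Ly96 and Ikbkb. The plot of changes shows where each of the 27 stands.

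**Figure D1:**
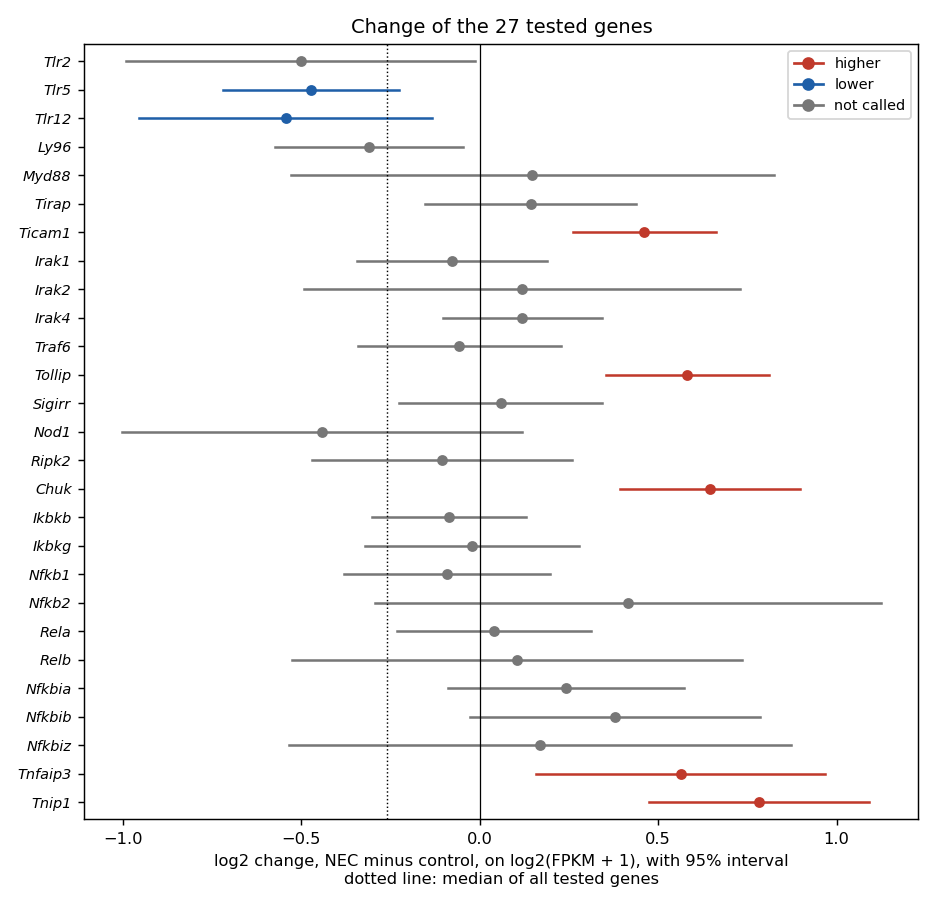
Change of the 27 tested genes in NEC relative to control: the x axis is the log2 change on log2(FPKM + 1), bars are 95% intervals from limma, and the dotted line is the median of all tested genes. The 5 genes that rose lie between 0.46 and 0.78, Tlr5 and Tlr12 at -0.47 and -0.54, and most of the 20 uncalled genes have intervals that span 0.

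The direction of the table depends on how libraries are scaled. With trimmed-mean (TMM) scaling, which puts the median of all tested genes at 0.01, 16.9% of tested genes rose and 14.1% fell, and 6 of the 27 genes rose and 0 fell. With quantile normalization 13.9% rose and 15.1% fell, with 8 of the 27 rising and 0 falling. The 5 genes that rose on the deposited scale were called on both of these, and the 2 that fell were not. Scaling to the mean log2 level of the 7 epithelial markers, an alternative chosen after seeing the data, gave 4 higher and 1 lower, with 6.41% and 20.2% of all tested genes called. On TMM scaling Irak4, the kinase that MyD88 recruits first, was added, with a log2 change of 0.42 (adjusted p = 0.0114, limma) against 0.12 (adjusted p = 0.331) on the deposited scale. Quantile normalization added Irak4, Tirap and Ikbkg.

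**Figure D2:**
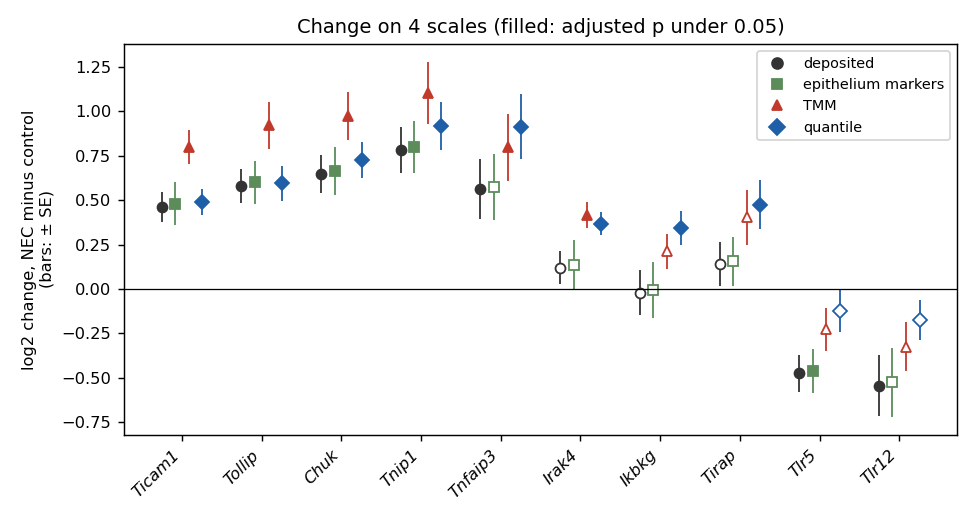
Log2 change of 10 genes on 4 scales, with bars of 1 standard error (SE) and filled symbols for an adjusted p under 0.05. Ticam1, Tollip, Chuk and Tnip1 are filled on all 4 scales, Tnfaip3 is open only on the epithelial scale, and Tlr5 and Tlr12 lie nearer 0 on the TMM and quantile scales.

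Promoters are shown for 4 genes, because NF-kB feeds back on its own pathway and the promoter sequence shows where a kB match lies. The windows run from 250 bases before to 50 after each start listed for a gene (RefSeq, build GRCm38.p6). They were searched on both strands for the 10-base kB consensus, which allows ambiguous letters. A gene with several windows counted if any held a match, and the window with the most match positions is shown. The windows of Nfkb2 not shown held matches at 2 and 1 positions, and that of Tnfaip3 at 0. Of 29 genes with a promoter in the table, 6 (20.7%) held a match: Tlr2, Tlr3, Nfkb2, Nfkbia, Tnfaip3 and Tnip1. Of all 27025 genes with a promoter, 5.14% held one, and of the 7 called genes 2 did. The 4 shown are those with matches at 2 or more positions, a choice made after the values were seen. They are written in the direction of transcription, with matched bases in capitals.
Tnip1, chr11:54962891-54963190, minus strand: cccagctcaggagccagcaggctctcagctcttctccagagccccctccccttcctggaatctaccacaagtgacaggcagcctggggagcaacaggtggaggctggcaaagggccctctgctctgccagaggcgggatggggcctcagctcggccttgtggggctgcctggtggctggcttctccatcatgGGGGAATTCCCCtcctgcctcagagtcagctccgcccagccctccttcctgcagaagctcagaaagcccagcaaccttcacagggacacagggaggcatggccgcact
Tnfaip3, chr10:19015361-19015660, minus strand: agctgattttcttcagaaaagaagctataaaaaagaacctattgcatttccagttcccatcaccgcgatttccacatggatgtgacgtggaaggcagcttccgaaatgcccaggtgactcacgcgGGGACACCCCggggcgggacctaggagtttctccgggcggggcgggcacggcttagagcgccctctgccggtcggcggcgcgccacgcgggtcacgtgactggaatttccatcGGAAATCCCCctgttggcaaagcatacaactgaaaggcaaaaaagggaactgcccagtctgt
Tlr2, chr3:83841559-83841858, minus strand: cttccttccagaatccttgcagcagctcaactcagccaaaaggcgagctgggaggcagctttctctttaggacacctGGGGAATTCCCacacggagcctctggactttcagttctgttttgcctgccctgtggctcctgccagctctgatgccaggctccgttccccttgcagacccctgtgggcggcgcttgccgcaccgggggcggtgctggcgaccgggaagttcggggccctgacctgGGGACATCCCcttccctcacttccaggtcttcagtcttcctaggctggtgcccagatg
Nfkb2, chr19:46304487-46304786, plus strand: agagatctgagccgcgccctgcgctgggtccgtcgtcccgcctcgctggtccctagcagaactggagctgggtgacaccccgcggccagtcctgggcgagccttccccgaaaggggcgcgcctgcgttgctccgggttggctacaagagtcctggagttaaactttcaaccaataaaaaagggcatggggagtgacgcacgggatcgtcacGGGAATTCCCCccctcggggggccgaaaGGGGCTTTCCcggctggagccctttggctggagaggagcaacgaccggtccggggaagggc
The palindrome GGGAATTCCC, which reads the same on both strands, was picked from the matches in promoters of the genes described here. It was in the promoters of Tnip1, Tlr2 and Nfkb2. Of the 27025 genes, 13 (0.0481%) held it, Tnip1, Tlr2 and Nfkb2 among them. Because it was picked from these promoters, the counts cannot test whether it is more common in the pathway than elsewhere. The first base of the palindrome lay 57 bases before the start in Tnip1, 172 before it in Tlr2 and 39 before it in Nfkb2. The matches of Tnfaip3 differed from it and began 125 and 12 bases before the start. A match is a stretch of letters and shows no binding, and these 4 promoters belong to genes that behaved differently: Tnip1 and Tnfaip3 rose in NEC, Nfkb2 was raised in 1 NEC library, and Tlr2 was not called.

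The receptors were the weakly expressed end of the pathway. Only Tlr2, Tlr5 and Tlr12 of the 11 Toll-like receptor genes reached a mean of 1 FPKM. The flagellin receptor gene Tlr5 (chromosome 1, 182954788 to 182976044, mm10) stood at 1.97, 1.62 and 1.79 FPKM in NEC 1, 2 and 3 and at 2.76, 3.02 and 2.85 in control 1, 2 and 3. Every NEC library lay below every control. The means were 1.79 ± 0.176 and 2.87 ± 0.131 FPKM (SD, n = 3 each), a log2 change of -0.47 (limma, SE 0.10, adjusted p = 0.0175). The call was lost without NEC 2 and without any 1 of the controls, and on TMM scaling (log2 change -0.23, adjusted p = 0.192). Tlr12, which together with TLR11 recognises profilin of protozoa (chromosome 4, 128615443 to 128618619), was at 0.887, 1.64 and 1.83 FPKM in NEC and 2.33, 2.67 and 2.57 in control. Its NEC libraries were also all lower, NEC 1 by the widest margin, with means of 1.45 ± 0.499 and 2.52 ± 0.173 FPKM. The log2 change was -0.54 (limma, SE 0.17, adjusted p = 0.0457), and the call held in 4 of 15 alternatives only, being lost without NEC 2, without any 1 of the controls and on each rescaling.

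Tlr2 was at 1.22, 0.548 and 0.569 FPKM in NEC and 1.32, 2.07 and 1.15 in control, which for this single-transcript gene corresponds to 62, 30 and 32 fragments against 62, 95 and 56. NEC 1 lay among the controls and NEC 2 and 3 below them. The log2 change of -0.50 (SE 0.20) had an adjusted p of 0.0923 (limma), and of 0.0301 without NEC 1, when the change was -0.67.

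Tlr4, the LPS receptor gene, missed the filter at a mean of 0.830 FPKM. It stood at 0.638, 0.130 and 0.127 FPKM in NEC and at 1.38, 0.875 and 1.83 in control, an estimated 44, 10 and 10 fragments against 88, 54 and 121 by its longest transcript. All NEC libraries were lower than all controls, and NEC 1 was 4.90 times the higher of the other NEC libraries. In a fit without the filter the log2 change was -0.87 (adjusted p = 0.0436, limma), where 15.3% of 33583 genes fell and 3.17% rose. Tlr1 (0.113 to 0.250 against 0.437 to 0.541 FPKM) and Tlr8 (0.0618 to 0.182 against 0.254 to 0.320) were likewise lower in every NEC library and were called lower in that fit, with adjusted p of 0.0317 and 0.0471. These rest on 6 to 14 against 20 to 27 estimated fragments for Tlr1 and 4 to 11 against 14 to 17 for Tlr8. Tlr1 and Tlr6 are close paralogs, and how their shared fragments were split is uncertain. The other low receptors overlapped between groups. Tlr3, the receptor for double-stranded RNA, was at 1.14, 0.270 and 0.272 FPKM in NEC and 0.375 to 0.422 in control. Tlr13, which recognises bacterial ribosomal RNA, was at 1.29, 0.814 and 0.634 against 0.407 to 0.684. Tlr6, Tlr7 and Tlr9 stayed between 0.0792 and 0.865 FPKM in all libraries. Over the 14 genes below the filter, 4 were lower in every NEC library (Tlr1, Tlr4, Tlr8 and Ticam2), 0 were higher in every NEC library and 10 overlapped. Among all genes with a mean of 0.1 to 1 FPKM, 41.7% were lower and 2.42% higher without overlap, and 3 of the 13 genes here that lie in that range were lower.

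**Figure D3:**
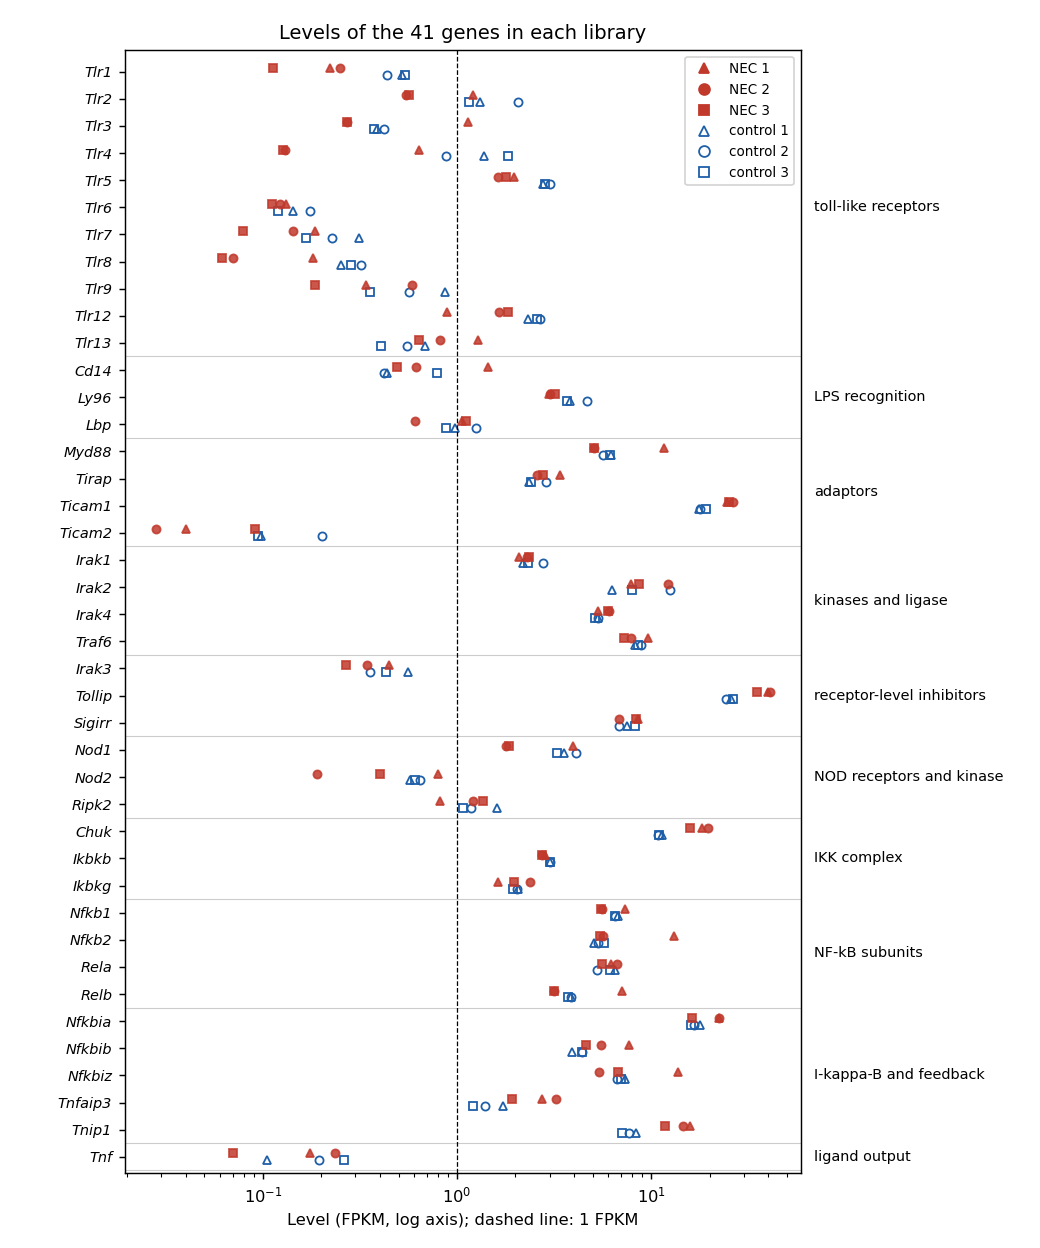
Level of each of the 41 genes in the 6 libraries on a log axis of FPKM, with filled symbols for NEC, open symbols for control and a dashed line at 1 FPKM. Most Toll-like receptors lie left of the line, and Tollip, Ticam1, Nfkbia and Chuk are the highest; the NEC 1 triangle lies to the right of the other NEC symbols in several rows.

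Of the genes that hand LPS to TLR4, Ly96, which encodes the LPS-binding partner MD-2, was at 2.98, 3.02 and 3.21 FPKM in NEC and 3.84, 4.64 and 3.70 in control. The NEC values lay below all controls, but the log2 change of -0.31 (SE 0.11) had an adjusted p of 0.0646 (limma) and was not called. Cd14, the LPS co-receptor, was at 1.44 FPKM in NEC 1, 0.614 and 0.491 in NEC 2 and 3, and 0.419 to 0.787 in control. Lbp, the LPS-binding protein, was at 0.609 to 1.11 against 0.876 to 1.26. Both had means under 1 FPKM and overlapping groups.

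Among the adaptors, Ticam1 rose. It encodes TRIF, the adaptor of TLR3 and of endosomal TLR4 (chromosome 17, 56269319 to 56276786), and stood at 24.7, 26.5 and 25.2 FPKM in NEC and 17.6, 17.9 and 19.1 in control. The 3 NEC libraries were close together and above all controls, at 25.5 ± 0.932 against 18.2 ± 0.815 FPKM. The log2 change was 0.46 (limma, SE 0.08, adjusted p = 0.0113), and the call was lost without control 1 (adjusted p = 0.0594) or control 2 (0.0600). Myd88 behaved otherwise, with 11.6 FPKM in NEC 1, 5.10 and 5.09 in NEC 2 and 3, and 6.22, 5.64 and 6.17 in control. NEC 1 was thus above and NEC 2 and 3 below the controls, and the log2 change of 0.15 (limma, SE 0.28, adjusted p = 0.697) turned to -0.20 without NEC 1. Its exons overlap those of Acaa1a on the other strand, a gene at 8.73 to 9.90 FPKM in NEC that was not raised in NEC 1. Tirap, which bridges TLR2 and TLR4 to MyD88, was at 2.92 ± 0.414 against 2.54 ± 0.283 FPKM and was not called. Ticam2, the bridge between TLR4 and TRIF, stayed at or under 0.201 FPKM, an estimated 2 to 13 fragments a library, and shares exons with Tmed7, which was at 17.5 to 20.3 FPKM.

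No member of the IRAK and TRAF6 relay was called. Irak4 was at 5.35, 6.06 and 6.03 FPKM in NEC and 5.30, 5.33 and 5.16 in control, with every NEC library narrowly above. Its exons overlap those of Twf1, which stood at 40.0 to 50.4 FPKM in NEC and 35.1 to 37.2 in control on the opposite strand, and the strand setting of the counting is not given in the sources used here. Irak1, the second kinase of the relay, was at 2.24 ± 0.143 against 2.42 ± 0.300 FPKM, and Irak2 at 9.58 ± 2.36 against 8.92 ± 3.17. Irak2 varied within groups more than between them, with 12.3 FPKM in NEC 2 and 12.4 in control 2 against 6.30 to 8.62 elsewhere. Traf6, the ubiquitin ligase that activates the kinase TAK1, was at 8.24 ± 1.26 against 8.55 ± 0.275 FPKM.

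Of the inhibitors at the receptor, Tollip, which binds the TIR domains of receptors and holds IRAK1 inactive, was the highest of all 41 genes in FPKM. At chromosome 7, 141874813 to 141918507, it stood at 39.9, 40.9 and 35.1 FPKM in NEC and 25.6, 24.4 and 26.3 in control, with no overlap. The means were 38.6 ± 3.15 and 25.5 ± 0.987 FPKM, a log2 change of 0.58 (limma, SE 0.10, adjusted p = 0.00922). The call was lost only without control 2 (adjusted p = 0.0511) among 16 alternatives. Sigirr, a receptor-like inhibitor of TLR and interleukin-1 signalling in gut epithelium, was at 7.92 ± 0.942 against 7.55 ± 0.686 FPKM and was not called. Irak3, the kinase-dead IRAK-M of macrophages, was at 0.267 to 0.446 against 0.356 to 0.556 FPKM, below the filter.

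In the NOD branch, Nod1, the sensor of peptides from Gram-negative cell wall, was at 3.96, 1.79 and 1.86 FPKM in NEC and 3.56, 4.08 and 3.28 in control. NEC 1 lay within the control range and NEC 2 and 3 below it. The log2 change of -0.44 (SE 0.24) was not called (adjusted p = 0.173, limma), while without NEC 1 it was -0.71 with an adjusted p of 0.00586. Nod2, which senses muramyl dipeptide, was at 0.797, 0.190 and 0.402 against 0.576 to 0.644 FPKM, and Ripk2, the kinase of both receptors, at 1.13 ± 0.275 against 1.29 ± 0.282 FPKM. The groups overlapped in both, and Ripk2 was not called.

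The IKK complex changed in 1 of its 3 subunits. Chuk encodes IKK-alpha, the kinase subunit that also drives the alternative NF-kB route (chromosome 19, 44073335 to 44107480). It was at 18.3, 19.7 and 15.8 FPKM in NEC and 11.4, 10.8 and 10.9 in control, each NEC library at least 15.8 and each control at most 11.4. The means were 17.9 ± 2.00 and 11.0 ± 0.332 FPKM, a log2 change of 0.65 (limma, SE 0.11, adjusted p = 0.00903), and the call held in 16 of 16 alternatives. Ikbkb, which encodes IKK-beta, the kinase of I-kappa-B in the canonical route, was at 2.82, 2.74 and 2.75 FPKM in NEC and 3.00, 3.00 and 3.02 in control. These groups did not overlap either, in the other direction, but the log2 change was only -0.09 (limma, SE 0.09, adjusted p = 0.47) and was 0.18 on TMM scaling. Ikbkg, the X-linked scaffold NEMO, was at 1.99 ± 0.381 against 2.02 ± 0.0583 FPKM.

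None of the 4 NF-kB subunit genes measured was called. Rela, the activating subunit p65, was at 6.17 ± 0.558 against 5.98 ± 0.626 FPKM. Nfkb1, the precursor of p50, was at 7.30, 5.59 and 5.54 FPKM in NEC and 6.73, 6.47 and 6.50 in control, with a log2 change of -0.09 that was -0.20 without NEC 1 (adjusted p = 0.0494, limma). Nfkb2, the p100 precursor of the alternative route, was at 13.1 FPKM in NEC 1, 5.67 and 5.47 in NEC 2 and 3, and 5.07 to 5.70 in control. NEC 1 alone stood apart, and the log2 change of 0.41 (limma, SE 0.30, adjusted p = 0.294) was 0.05 without it. Its exons overlap those of Psd on the other strand, at 0.705, 2.45 and 2.72 FPKM in NEC and 4.73 to 5.18 in control. The part of Psd in the Nfkb2 values was not tested. Relb, the partner of p52, was at 7.10 FPKM in NEC 1, 3.14 and 3.15 in NEC 2 and 3, and 3.72 to 3.87 in control, so that NEC 2 and 3 were below the controls and NEC 1 above. Its log2 change was 0.11 (adjusted p = 0.768, limma) and -0.22 without NEC 1 (adjusted p = 0.0550).

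Among the I-kappa-B and feedback genes, 2 of 5 rose. Tnip1 encodes ABIN1, which binds ubiquitin chains and works with A20 (chromosome 11, 54910785 to 54962917). It was at 15.9, 14.5 and 11.8 FPKM in NEC and 8.37, 7.68 and 7.11 in control, with a wide gap between the groups. Means of 14.1 ± 2.06 and 7.72 ± 0.631 FPKM gave a log2 change of 0.78 (limma, SE 0.13, adjusted p = 0.00925), the largest among the 27 genes, and the call held in 16 of 16 alternatives. Tnfaip3 encodes A20, the ubiquitin-editing enzyme that switches off IKK activation (chromosome 10, 19000910 to 19015657). It was at 2.73, 3.25 and 1.91 FPKM in NEC and 1.72, 1.39 and 1.20 in control, where NEC 3 lay close to control 1. Means of 2.63 ± 0.675 and 1.44 ± 0.262 FPKM gave a log2 change of 0.56 (limma, SE 0.17, adjusted p = 0.0403). That call held in 7 of 15 alternatives and was lost without NEC 1, without NEC 2 and without any 1 of the controls, with adjusted p up to 0.121.

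Nfkbia, the I-kappa-B-alpha gene and an early NF-kB target, was at 22.3, 22.3 and 16.3 FPKM in NEC and 17.9, 16.7 and 16.0 in control. NEC 1 and 2 were above the controls and NEC 3 among them, so the log2 change of 0.24 (adjusted p = 0.202, limma) was called only without NEC 3, at 0.38 (adjusted p = 0.0256). Nfkbib, the I-kappa-B-beta gene, was at 7.68, 5.49 and 4.60 against 3.92, 4.38 and 4.40 FPKM, higher in every NEC library, and was called only without NEC 3 (log2 change 0.52, adjusted p = 0.0428, against 0.38 and 0.117 with all libraries). Its exons overlap those of Sirt2 on the other strand, at 7.59 to 8.16 against 6.27 to 6.91 FPKM. Nfkbiz, a nuclear I-kappa-B that assists transcription of some NF-kB targets, was at 13.7 FPKM in NEC 1, 5.38 and 6.75 in NEC 2 and 3, and 6.68 to 7.35 in control. Tnf, the cytokine at the end of the pathway, was at 0.175, 0.235 and 0.0704 FPKM in NEC and 0.105, 0.194 and 0.263 in control, an estimated 2 to 7 fragments a library, so that no difference was detectable at this depth. None of the 7 called genes has exons that overlap another gene in the annotation, while 11 of the 41 do.

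The plot of values relative to control sets the single libraries side by side. The 5 risen genes were raised in all 3 NEC libraries. Another group was raised in NEC 1 relative to NEC 2 and 3: 12 of the 41 genes, and 6 of the 27 tested (22.2%), were in NEC 1 at least 1.5 times their level in both other NEC libraries. The tested ones were Tlr2, Myd88, Nod1, Nfkb2, Relb and Nfkbiz, and the low ones Tlr3, Tlr4, Tlr8, Tlr13, Cd14 and Nod2. Among all tested genes 4.92% were so raised in NEC 1, and 19.9% were lowered to the same degree, which of the 41 held for Tlr12 only. In NEC 2 and NEC 3, 0 of the 27 were raised in this way, where 2.13% and 5.01% of all tested genes were. In control 2, Tlr2 and Irak2 were, where 1.61% of all tested genes were. On the TMM scale 8 of 27 were raised in NEC 1 (29.6%, with 8.77% of all tested genes), and on the epithelial scale 6 of 27 (with 3.71%). These shares of all genes cover tested genes only. None was computed for genes below the filter, so the 12 of 41 has no share to stand beside. Among the low ones, Tlr8 rests on an estimated 11 fragments in NEC 1 and 4 each in NEC 2 and 3. The threshold of 1.5 was chosen with the values known, and these counts describe 1 library without a test. Relative to the higher of NEC 2 and 3, NEC 1 was at 2.27 times for Myd88, 2.30 times for Nfkb2, 2.26 times for Relb and 2.03 times for Nfkbiz. Not all of the 12 genes were above control in NEC 1. Relative to the control mean, NEC 1 was at 0.804 times for Tlr2, 0.469 for Tlr4, 0.635 for Tlr8 and 1.09 for Nod1. For the others of the 12 it was at 1.31 to 2.89 times. NEC 1 also had the lowest fibroblast and smooth muscle marker sums (89.5 and 114 FPKM, against 250 to 289 and 479 to 508 in NEC 2 and 3), the highest Rn7s1 share and the Y-linked transcripts, and these cannot be told apart.

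**Figure D4:**
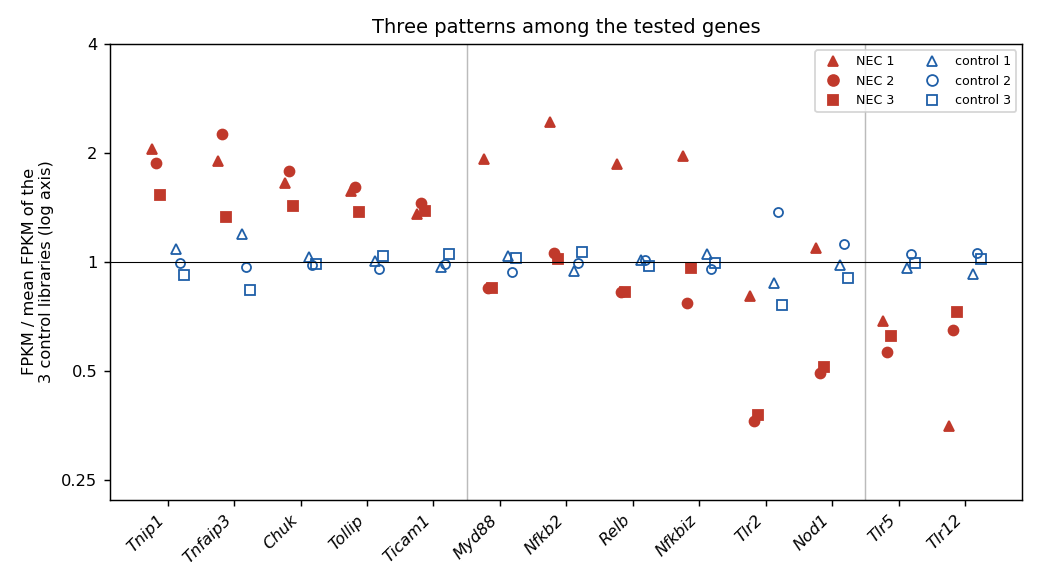
FPKM of 13 genes in each library divided by the mean of the 3 controls, on a log axis, with filled symbols for NEC and open symbols for control. The 5 genes on the left have all NEC symbols above all controls, the 6 in the middle have the NEC 1 triangle above the other NEC symbols, and Tlr5 and Tlr12 on the right have all NEC symbols below the controls.

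Leaving NEC 1 out moved the count of falls more than that of rises. The genes that rose numbered 4 (Ticam1, Tollip, Chuk and Tnip1), and those that fell 5 (Tlr2, Tlr5, Tlr12, Nod1 and Nfkb1), where 9.77% of 16029 tested genes rose and 33.5% fell. Tnfaip3 then had an adjusted p of 0.0700 (limma). The NEC libraries that remain, 2 and 3, held Xist and almost no Y-linked transcripts, while all controls held Y-linked transcripts. Sex and group therefore cannot be told apart in the fit without NEC 1, here or where it is given for single genes. In the fit of all 6 libraries NEC 2 and 3 also differ in sex from every control. That fit had no term for sex, and the part of sex in its calls was not tested.

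The other genes of the pathway, a list of 60 that adds receptors of the interleukin-1 family, TNF receptors, ubiquitin enzymes and kinases, showed 4 of 45 tested genes higher, 5 lower and 36 not called, with a median log2 change of -0.02. That is 8.89% higher, near the 7.69% of all tested genes, and 11.1% lower, where 30.6% of all tested genes fell. The median over all tested genes was -0.26. Tnfrsf1a, the main TNF receptor, was at 53.2 ± 13.9 against 24.4 ± 1.17 FPKM (log2 change 1.06, adjusted p = 0.00968, limma). Tradd, the adaptor of that receptor, was at 14.7 ± 3.19 against 7.61 ± 0.0748 FPKM (log2 change 0.85). Il1rl1, the interleukin-33 receptor, was at 2.38 ± 0.567 against 0.759 ± 0.107 FPKM and rose by 0.93, and Tab3, a TAK1-binding protein, rose by 0.47 on the log2 scale. Il18r1, a chain of the interleukin-18 receptor, fell from 9.88 ± 0.508 to 0.940 ± 0.486 FPKM, a log2 change of -2.52 (adjusted p = 0.00113, limma). Peli2, an E3 ligase of IRAK signalling, fell by 0.76, Otulin, a deubiquitinase of linear chains, by 0.44, and Map3k14, the NIK kinase of the alternative route, by 0.43 on the log2 scale, and the fifth was Dusp1, a MAP kinase phosphatase. The calls of Tab3 and Peli2 were lost without control 1 or control 2, that of Otulin without any 1 of the controls, and that of Map3k14 without NEC 2 or any 1 of the controls. Otulin and Map3k14 were also not called on the TMM, quantile and epithelial scales, nor was Peli2 on the quantile scale (log2 change -0.39, adjusted p = 0.0927, limma).

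Of 42 common NF-kB target genes, 21 were tested, of which 1 rose, 2 fell and 18 were not called, with a median log2 change of -0.01. The shares were 4.76% and 9.52%, beside 7.69% and 30.6% of all tested genes. Il1a, the alarmin cytokine interleukin-1 alpha, was at 2.87, 1.98 and 0.923 FPKM in NEC and 0.0649, 0.0665 and 0.188 in control (log2 change 1.35, adjusted p = 0.0122, limma), and its groups were far apart. The call was lost without control 1 or control 2, and without NEC 1 or NEC 2 the gene had a mean under 1 FPKM and was not tested. Ptgs2, the inducible cyclooxygenase, was at 0.926 ± 0.300 against 2.86 ± 0.129 FPKM (log2 change -1.02, adjusted p = 0.00676). Ccl20, a chemokine of the gut epithelium, was at 0.813 ± 0.0901 against 2.05 ± 0.287 FPKM (log2 change -0.75, adjusted p = 0.00865), a call lost with quantile normalization (log2 change -0.38, adjusted p = 0.105, limma). Il6 was at or under 0.0262 FPKM and Cxcl1 at or under 0.117 in every library. NEC 1 stood at least 1.5 times above both other NEC libraries in 8 of the 45 other pathway genes (17.8%) and 6 of the 21 targets (28.6%), the share for all tested genes being 4.92%. Examples chosen after their values were seen are Bcl3, a nuclear I-kappa-B, at 19.9, 5.19 and 4.46 FPKM in NEC and 3.10 to 3.99 in control, and Usp18, an interferon-induced protease, at 61.3, 2.41 and 2.66 in NEC and 2.69 to 4.31 in control. Saa3, an acute-phase protein gene, was at 14.3, 0.468 and 0.316 FPKM in NEC and 0.150 to 0.202 in control.

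**Figure D5:**
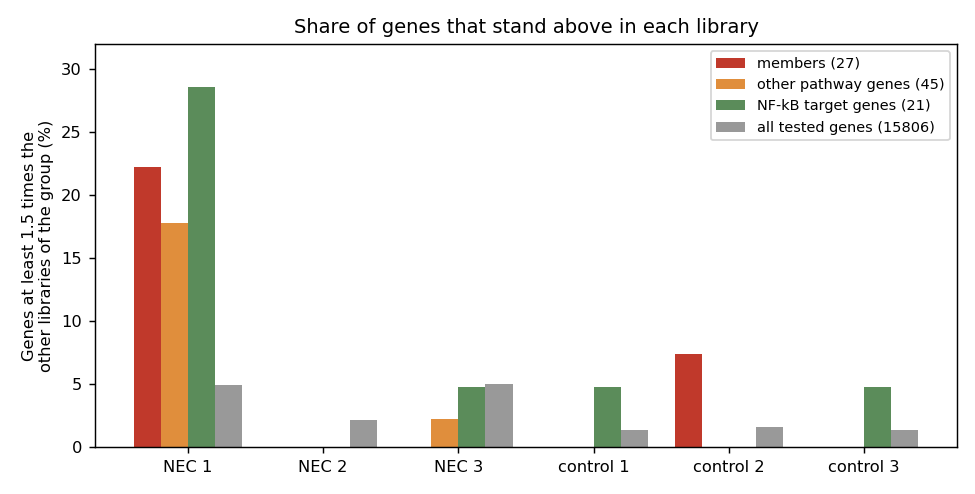
Percentage of genes that are at least 1.5 times their level in both other libraries of the same group, for each of the 6 libraries and for 4 sets of genes. The bars of NEC 1 reach 22.2% for the 27 tested genes, 17.8% for the other pathway genes and 28.6% for the targets, against 4.92% for all tested genes.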

How the data were processed

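RNA of terminal ileum was measured in 3 NEC and 3 control libraries. Per the labels' protocols, RNA with an integrity number above 7.0 went into paired-end TruSeq libraries. Reads were processed on build mm10 with HISAT2, Cuffdiff and SAMtools 1.3.1, per the submitters' processing notes. Annotation, strand setting and other versions are not given in the sources used here. Values that the authors deposited name no unit and were read as FPKM, as Cuffdiff gives them. Columns beginning with N were read as NEC, the only group with that initial. Depth was estimated from the steps between low values of single-transcript genes. Symbols and coordinates came from GENCODE M21.

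Genes whose mean reached 1 FPKM were tested as log2(FPKM + 1) with limma 3.58.1 in R 4.3.3 (mean-variance trend, group as the only term), with Benjamini-Hochberg adjustment over all tested genes and calls at an adjusted p under 0.05. An exact permutation test of 3 against 3 cannot go below p = 0.1 and was not used. The fit was tested on simulated data. The 41 genes, the lists and the tests were chosen with earlier results of these data known. Called genes get full values, the other members group values or ranges, and the other lists up to 4 names per direction with the smallest p. Dusp1, Il6, Cxcl1, Bcl3, Usp18 and Saa3 fall outside that rule and were named after their values were seen. At most 3 called genes with the most kB matches were to have their promoters shown. Only 2 called genes held a match, and Tlr2 and Nfkb2 were added. The alternatives were a pseudocount of 0.1, no filter, a filter at a mean of 5 FPKM, unweighted TMM scaling (30% of log ratios and 5% of levels trimmed at each end), quantile normalization, protein-coding genes outside the 100 most abundant, a replicate block, a fit without trend, array weights, scaling to the epithelial markers (chosen after seeing the data), and each library left out. Python 3.11.15 with matplotlib 3.10.9 drew the figures.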

Additional observations from a re-analysis of the deposited data

How the results depend on the processing

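Of 277 combinations of a called named gene and an alternative, 225 kept the call, 52 lost it and 0 turned its direction. Of 310 for genes not called, 12 gained a call and 29 changed sign, 1 of them (Ikbkg with quantile normalization) doing both. Among the 41 genes, 5 rose and 2 fell on the deposited scale. The rises numbered 8 with quantile normalization. The falls numbered 1 with a pseudocount of 0.1, 4 without the filter, 0 with a mean of at least 5 FPKM, 0 with TMM scaling, 0 with quantile normalization, 1 with protein-coding genes outside the 100 most abundant, 5 with array weights and 1 with epithelial scaling. Leaving out 1 library gave 2 to 7 rises and 0 to 5 falls. For other pathway genes (4 rose, 5 fell), TMM scaling gave 9 and 2, quantile normalization 7 and 1, a mean of at least 5 FPKM 2 falls, array weights 10 falls and epithelial scaling 3 falls, and leaving out 1 library 3 to 5 and 1 to 10. For targets (1 rose, 2 fell), a mean of at least 5 FPKM gave 0 and 0, TMM scaling 2 rises, quantile normalization 4 and 1, protein-coding genes outside the 100 most abundant 2 rises, array weights 3 and 5, and leaving out 1 library 0 to 2 and 2 to 4. For all genes (1215 rose, 4829 fell), TMM scaling gave 2659 and 2214, quantile normalization 2202 and 2387, a mean of at least 5 FPKM 1746 falls, epithelial scaling 3195 falls, and leaving out 1 library 471 to 1566 and 917 to 5378. The lowest counts, 471 and 917, came without control 2. Why the counts differ was not tested. Some alternatives also leave fewer genes or libraries.

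Same-numbered libraries did not deviate together (correlations of -0.0514, -0.00737 and -0.0743 for replicates 1, 2 and 3), so the numbers were not treated as pairs. With the replicate block, 4 of the 41 genes rose and 0 fell, 4 other pathway genes rose and 2 fell, 1 target rose and 2 fell, and 856 genes in all rose and 3230 fell.

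The sign changes were all in genes not called on the deposited scale. With TMM scaling and quantile normalization respectively, the log2 change was 0.17 and 0.27 for Irak1, 0.26 and 0.13 for Traf6, 0.081 and 0.27 for Ripk2, 0.18 and 0.24 for Ikbkb, 0.21 and 0.34 for Ikbkg, and 0.21 and 0.13 for Nfkb1. With protein-coding genes outside the 100 most abundant it was 0.023 for Traf6 and 0.037 for Ikbkg. Array weights gave -0.13 for Myd88, -0.018 for Sigirr, 0.085 for Ikbkg, -0.16 for Relb and -0.17 for Nfkbiz. Leaving out 1 library gave -0.20 to 0.32 for Myd88, -0.18 to 0.0030 for Ripk2, -0.11 to 0.069 for Ikbkg, -0.22 to 0.27 for Relb and -0.19 to 0.42 for Nfkbiz, whose signs changed without NEC 1. It gave -0.080 to 0.36 for Irak2 (changed without NEC 2 or control 1), -0.16 to 0.024 for Traf6 (without NEC 3) and -0.033 to 0.10 for Rela (without NEC 2 or control 2).

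The libraries of NEC spread more than those of control (median SD of log2 values within a group 0.21 and 0.09). Tnf, Tlr6 and Ticam2 rest on an estimated 2 to 13 fragments a library, which limits the differences that can be seen in them.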

Other observations

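The palindrome GGGAATTCCC, found in the promoters of Tnip1, Tlr2 and Nfkb2, was in those of 13 genes, of which 11 are in the expression table and 6 had a mean of at least 1 FPKM. Besides the 3 named, these were Sirt2, a NAD-dependent deacetylase that overlaps Nfkbib, the zinc transporter gene Slc39a1, and Gpbp1. Sirt2 was at 8.16, 7.59 and 7.68 FPKM in NEC and 6.27, 6.31 and 6.91 in control, higher in every NEC library. Slc39a1 was at 76.5 to 91.1 FPKM in NEC and 90.6 to 100.2 in control, and Gpbp1 at 5.80 to 9.80 against 11.3 to 19.3. Of the 6, Nfkb2 and Tlr2 were in NEC 1 at least 1.5 times their level in both other NEC libraries. Among the 12 of the 41 genes for which this held in NEC 1, 8 had a promoter in the table and 3 of these held a kB match. Among the other 29 genes 21 had one and 3 held a match. The 12 were picked with the values known, and the palindrome came from promoters of the 41 genes. These counts therefore test no link between a match and the level in NEC 1.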
